A study of Mus musculus with 4 samples.

Results

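The genes described here are G1 cyclins, cyclin-dependent kinases (CDKs), CDK inhibitors and the retinoblastoma gene, measured in mouse B lymphocytes by Affymetrix arrays. The list named 10 genes, and a gene was included if a probe set of the array carried its symbol and no other. 9 of the 10 met this: Ccnd2, Ccnd3, Ccne1, Cdk2, Cdk4, Cdk6, Cdkn1a, Cdkn1b and Rb1. Ccne2, for cyclin E2, shared its only probe set with another gene, Ints8, and was not analysed as a member. These 9 are part of 22180 genes with a probe set of a single symbol and of 12456 genes that reached the signal floor of 3.83 log2 units in at least 1 array. All 9 were above that floor in every array, with a lowest signal of 4.42, so the filter removed none of them.

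Suspensions of spleen, thymus and lymph node cells from C57BL/6 mice were sorted for B220 (CD45R), a surface protein of the B lineage. The 4 groups were stimulated Tilcara, non-stimulated Tilcara, stimulated wild type and non-stimulated wild type, with 1 array each. Tilcara is described as a PKCbeta mutant on the C57BL/6 background; its change in the protein and the age of the mice were not given in the sources used here. Stimulated cells received PMA, an activator of PKC enzymes, at 10 ng/mL together with A23187, an ionophore for calcium, at 1 µM over 4 hours. Whether the non-stimulated cells were kept in culture for that time is not given. An effect of culture therefore cannot be told apart from one of stimulation. How many mice gave cells to an array is not given either. In such bulk samples, fewer cells that express a gene and less of its RNA per cell cannot be told apart.

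Resting lymphocytes leave quiescence by building active kinase complexes. The D cyclins bind CDK4 and CDK6, cyclin E binds CDK2, and both kinds of complex phosphorylate the retinoblastoma protein, which otherwise holds E2F transcription factors in check. The protein p27, the product of Cdkn1b, is abundant in resting lymphocytes and blocks CDK2, while p21, the product of Cdkn1a, is a related inhibitor induced by p53 and by growth signals. Cyclin D2 is known as the D cyclin that antigen receptor signals induce in mouse B cells, cyclin D3 as one that follows later and that germinal centre B cells need.

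Stimulation split the 9 genes, and the D cyclins, the kinases and the inhibitors each had members that rose and members that fell. Fitted over both genotypes, 1 array of each per state, limma called 4 that rose (Ccnd2, Cdk6, Cdkn1a and Cdk4) and 5 that fell (Cdkn1b, Rb1, Ccne1, Cdk2 and Ccnd3). Over all genes used, 22% rose and 22.8% fell at the same adjusted p of at most 0.05, or 44.8% in either direction, so calls were common on these arrays. In the Tilcara arrays 7 of the 9 differed by at least 2-fold with stimulation, against 26.2% of all genes; 4 were higher (11.9% of all genes) and 3 lower (14.3%). In the wild-type arrays 8 of the 9 did so, against 29.3% of all genes, with 4 higher (13.4%) and 4 lower (15.9%). The median size of the response among the 9 was 1.92 log2 units in Tilcara and 2.02 in wild type, beside 0.50 and 0.56 over all genes used. Single arrays give no spread between replicates. In the limma fit the error comes from how far the Tilcara response departs from the wild-type response, with 1 residual degree of freedom, combined with a variance prior from all genes worth 3.46 degrees of freedom. Genes with unlike responses could be called too, and Ccnd3 was one.

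**Figure D1:**
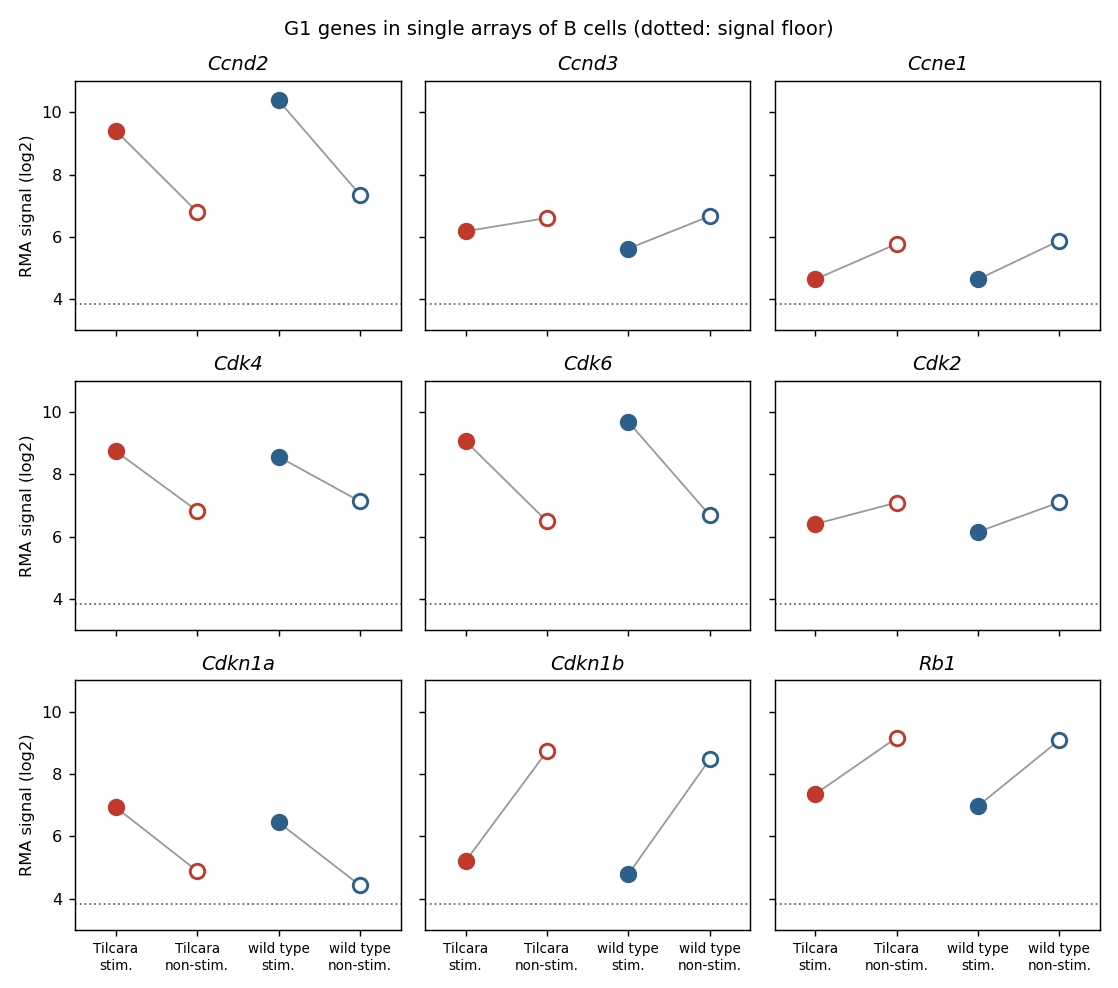
RMA signal (log2) of the 9 genes in each array, with 1 point per array; filled points are stimulated cells, open points non-stimulated cells, red Tilcara and blue wild type, and lines join the states of a genotype. Ccnd2, Cdk4, Cdk6 and Cdkn1a were higher in both stimulated arrays and the other 5 lower, and no point lies below the dotted signal floor of 3.83.

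Among the cyclins, Ccnd2 (probe set 17471222) had signals of 9.40 in stimulated and 6.80 in non-stimulated Tilcara cells, against 10.38 in stimulated and 7.35 in non-stimulated wild-type cells. Both stimulated arrays were above both non-stimulated ones, an order of single arrays that was not tested. The difference with stimulation was 6.08-fold in Tilcara and 8.13-fold in wild type, and limma called the rise (log2 change 2.81, SE 0.18, adjusted p = 0.00141). By this change Ccnd2 stood at rank 108 from the top among 12456 genes.

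Ccnd3 (probe set 17338269), for cyclin D3, had signals of 6.18 in stimulated and 6.61 in non-stimulated Tilcara cells, against 5.62 and 6.66 in stimulated and non-stimulated wild-type cells. Stimulated cells were lower by only 1.34-fold in Tilcara and by 2.06-fold in wild type. The fall passed limma's threshold narrowly (log2 change −0.73, SE 0.21, adjusted p = 0.0448), and without a filter on low signals it did not (adjusted p = 0.0714). So Ccnd2 and Ccnd3 went opposite ways between non-stimulated cells and cells stimulated for 4 hours. Ccnd1, for the D cyclin that lymphocytes use little, gave low signals of between 3.35 and 3.94 in the 4 arrays and was not called by limma (adjusted p = 0.267).

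Ccne1 (probe set 17489886), for the cyclin that activates CDK2 late in G1, had a signal of 4.64 in both stimulated arrays, against 5.78 in non-stimulated Tilcara and 5.88 in non-stimulated wild-type cells. It fell (limma, log2 change −1.19, SE 0.15, adjusted p = 0.005), 2.20-fold in Tilcara and 2.37-fold in wild type. The deposited values of the stimulated arrays were identical for Ccne1, as they were for 39 of the 12456 genes used, so its genotype difference after stimulation is listed as 0. The probe set that Ccne2 shares with Ints8 read 5.88 in stimulated and 4.56 in non-stimulated Tilcara cells. In wild type it read 5.63 and 4.79 in the same order. The share of each gene in that signal cannot be told apart.

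Both kinase partners of the D cyclins rose. Cdk6 (probe set 17434297) had signals of 9.06 in stimulated and 6.49 in non-stimulated Tilcara cells, against 9.68 and 6.68 in stimulated and non-stimulated wild-type cells. The stimulated arrays stood well above the others, by 5.95-fold in Tilcara and 7.98-fold in wild type (limma, log2 change 2.79, SE 0.18, adjusted p = 0.00141, rank 112 from the top). Cdk4 (probe set 17237899) had signals of 8.74 in stimulated and 6.82 in non-stimulated Tilcara cells, against 8.56 and 7.13 in stimulated and non-stimulated wild-type cells. Its difference was 3.77-fold in Tilcara and 2.70-fold in wild type (limma, log2 change 1.67, SE 0.19, adjusted p = 0.00379), so that here the Tilcara array showed the larger difference.

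Cdk2 (probe set 17246299), the partner of cyclin E, went the other way. Its signals were 6.40 in stimulated and 7.09 in non-stimulated Tilcara cells, against 6.15 and 7.10 in stimulated and non-stimulated wild-type cells. It fell (limma, log2 change −0.82, SE 0.16, adjusted p = 0.0161), but by less than 2-fold in each genotype, 1.61-fold and 1.93-fold in Tilcara and wild type.

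**Figure D2:**
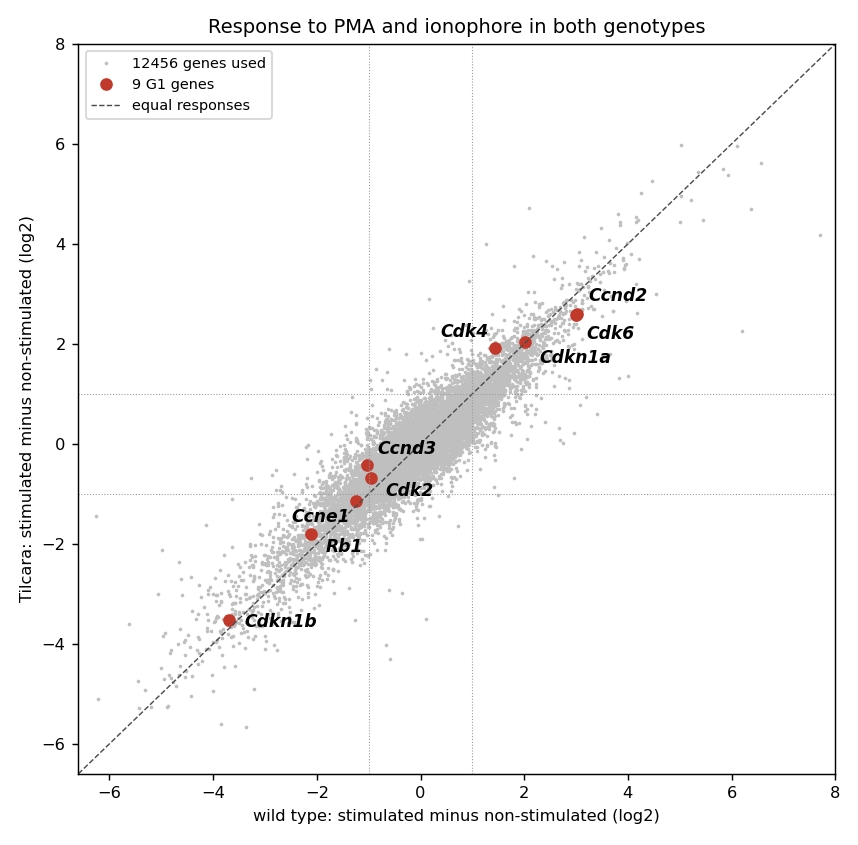
Stimulated minus non-stimulated signal (log2) of every gene used (grey, 12456 genes) and of the 9 G1 genes (red), with Tilcara on the vertical and wild type on the horizontal axis; the dashed line marks equal responses and dotted lines 2-fold. Ccnd2 and Cdk6 nearly coincide at the upper right, below the line, Cdk4 and Ccnd3 lie above it, and Cdkn1b is lowest at −3.52 in Tilcara and −3.68 in wild type.

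The promoters of these kinases are shown because Cdk4 and Cdk6 moved together and opposite to Cdk2, and because Myc, whose protein binds the E-box CACGTG, rose in the same arrays. Myc had signals of 10.75 in stimulated and 8.75 in non-stimulated Tilcara cells, against 10.92 and 8.96 in stimulated and non-stimulated wild-type cells (limma, log2 change 1.98, SE 0.15, adjusted p = 0.00168). The sequences are the 250 bases before the RefSeq start in build GRCm38.p6, written 5′ to 3′ on the strand of the gene. Capitals mark CACGTG in Cdk4 and Cdk6, and in Cdk2 an E2F motif (TTTCCCGC, TTTGGCGC or TTTCGCGC, either strand).
Cdk4, chr10:127063285-127063534, + strand: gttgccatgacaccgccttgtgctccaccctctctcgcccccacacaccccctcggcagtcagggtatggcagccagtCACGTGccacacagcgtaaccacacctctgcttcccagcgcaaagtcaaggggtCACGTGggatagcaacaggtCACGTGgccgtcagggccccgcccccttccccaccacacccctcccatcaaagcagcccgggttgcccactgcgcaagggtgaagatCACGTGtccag
Cdk6, chr5:3343643-3343892, + strand: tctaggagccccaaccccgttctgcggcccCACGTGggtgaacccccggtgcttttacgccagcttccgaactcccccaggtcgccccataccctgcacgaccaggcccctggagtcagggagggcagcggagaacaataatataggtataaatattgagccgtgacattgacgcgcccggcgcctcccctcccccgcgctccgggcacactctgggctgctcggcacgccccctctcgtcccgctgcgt
Cdk2, chr10:128705052-128705301, − strand: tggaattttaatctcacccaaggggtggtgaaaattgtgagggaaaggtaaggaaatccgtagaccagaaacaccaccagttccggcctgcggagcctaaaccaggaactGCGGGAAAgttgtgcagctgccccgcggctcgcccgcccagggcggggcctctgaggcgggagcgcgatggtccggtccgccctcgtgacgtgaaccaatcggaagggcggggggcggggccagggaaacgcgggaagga
The Cdk4 window held 4 copies of CACGTG, which begin 172, 118, 98 and 11 bases before the start, and the Cdk6 window held 1, beginning 220 bases before it. Of 32851 RefSeq promoters searched over the same length, 6.02% held at least 1 copy and 0.0213%, or 7 promoters, held at least 4. No other of the 7 genes with a promoter in the RefSeq table had the E-box in any of the 9 windows. The E2F motif was found in Cdk2 alone of these genes, beginning 140 bases before the start, against 1.53% of all promoters. Ccnd2 and Rb1 had no entry. A match of letters is not a measured binding site. Whether Myc plays a part in the changes of Cdk4 and Cdk6 was not tested.

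GGGCGG, bound by SP1 and often found near starts of genes, occurred in 7 of the 9 windows, those of 6 of the 7 genes, against 32.7% of all promoters. A loose NF-kB motif (GGG and CC with 5 bases between) occurred in 8 of the 9 windows and in all 7 genes, but also in 45.8% of all promoters. Part of its matches lay on the same bases as GGGCGG, as in Cdk2, so the motifs are not separate observations. Neither AP-1 (TGACTCA or TGAGTCA) nor CRE (TGACGTCA) motifs were found in the 9 windows, and they occurred in 4.46% and 1.55% of all promoters. A forkhead motif (TGTTTAC or TGTTTGC, 7.29% of all promoters) was found in 1 of the windows of Ccnd3. GC content of the windows was between 54% and 76%, beside a median of 52.4% over all promoters.

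Cdkn1b and Cdkn1a, both genes of CIP/KIP inhibitors, went opposite ways. Cdkn1c, for the third protein of this family, had a log2 change of 0.15 and was not called (limma, adjusted p = 0.453). Cdkn1b (probe set 17463718), for p27, had signals of 5.20 in stimulated and 8.72 in non-stimulated Tilcara cells, against 4.78 and 8.47 in stimulated and non-stimulated wild-type cells. This was the widest separation of states among the 9 genes, 11.5-fold lower in stimulated Tilcara and 12.9-fold lower in stimulated wild-type cells. Cdkn1b fell (limma, log2 change −3.60, SE 0.15, adjusted p = 0.00109) and stood at rank 87 from the bottom among 12456 genes. Foxo3, for a transcription factor known to activate Cdkn1b, fell too (limma, log2 change −1.50), and so did Foxo1 (−1.40). Over all genes used 22.8% fell, and a link of these genes to Cdkn1b was not tested. Both stimulated Foxo3 signals, 3.69 in Tilcara and 3.60 in wild type, were below the floor, so its change is approximate.

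Cdkn1a (probe set 17335467), for p21, had signals of 6.93 in stimulated and 4.88 in non-stimulated Tilcara cells, against 6.44 and 4.42 in stimulated and non-stimulated wild-type cells. It rose by nearly the same amount in both genotypes, 4.13-fold in Tilcara and 4.06-fold in wild type (limma, log2 change 2.03, SE 0.15, adjusted p = 0.00165). Its non-stimulated signals lay close to the floor of 3.83, so the fold is approximate. The upstream of its 2 RefSeq starts is shown because it holds the core of a p53 element, 2 copies of CATG with 6 bases between, in capitals; this motif was searched after the sequence had been seen.
Cdkn1a, chr17:29090729-29090978, + strand: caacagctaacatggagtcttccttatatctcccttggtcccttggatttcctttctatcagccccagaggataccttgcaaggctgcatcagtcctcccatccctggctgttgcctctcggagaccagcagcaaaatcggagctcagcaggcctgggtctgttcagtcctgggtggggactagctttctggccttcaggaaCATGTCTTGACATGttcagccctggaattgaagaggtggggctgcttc
That motif occurred in 0.49% of all promoters and in no other of the windows. The other p53 targets were split. Of 16 listed, 13 were measured over the floor, of which 3 rose, 4 fell and 6 were not called by limma, with a median log2 change of −0.17; the 7 called of 13 compare with 44.8% of all genes. Sesn2, a sestrin gene of the stress response, rose (2.57), while Sesn1 (−3.47) and the polo-like kinase gene Plk2 (−2.00) fell; Mdm2, the p53 feedback ubiquitin ligase, had a change of 0.06 and was not called. The non-stimulated Sesn2 signals, 2.97 in Tilcara and 3.15 in wild type, were below the floor, so the size of its change is approximate. Stimulated Sesn1 signals, 4.41 in Tilcara and 3.99 in wild type, lay close to the floor.

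Rb1 (probe set 17308570), for the retinoblastoma protein, had signals of 7.35 in stimulated and 9.16 in non-stimulated Tilcara cells, against 6.97 and 9.09 in stimulated and non-stimulated wild-type cells. The non-stimulated arrays were close together and above both stimulated ones, which were lower by 3.51-fold in Tilcara and 4.33-fold in wild type. Rb1 fell (limma, log2 change −1.96, SE 0.16, adjusted p = 0.00203). A dimmer probe set with the symbol Rb1 alone (17308568) read 2.56 in stimulated and 3.11 in non-stimulated Tilcara cells, against 2.25 and 4.97 in stimulated and non-stimulated wild-type cells. Only its non-stimulated wild-type value exceeded the floor.

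Other genes of the G1 machinery were counted in lists, to be read beside the 44.8% of all genes that limma called; nothing particular to a list is drawn from these counts. Of 8 further G1 cyclins, CDK inhibitors and pocket proteins, all measured, none rose and 4 fell, with a median log2 change of −0.70 (limma). The 4 were Rbl2 (−3.24), for the pocket protein p130 that keeps resting cells out of the cycle, its relative Rbl1 (−1.86), and the INK4 inhibitors of CDK4 and CDK6 Cdkn2d (−1.72) and Cdkn2c (−1.48). Rbl2 had signals of 3.55 in stimulated and 6.95 in non-stimulated Tilcara cells, against 3.86 and 6.93 in stimulated and non-stimulated wild-type cells. So 1 of its values was below the floor and its change is approximate. The stimulated signals of Rbl1 and Cdkn2c, between 4.07 and 4.38, and of Cdkn2d in Tilcara (4.10) lay close to the floor too. Of 8 measured E2F and DP genes 4 rose and 3 fell, with a median of 0.49; the E2F partner gene Tfdp1 rose (1.84), and the other partner gene Tfdp2 (−1.18) and the activator E2f2 (−1.30), whose stimulated signals were below the floor, fell. E2f1 was not called (adjusted p = 0.8).

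The next lists hold genes that act on the proteins of the 9 genes. Of 7 measured genes for the activation of CDKs and their brakes, 4 rose and 1 fell, with a median of 1.07. The phosphatase gene Cdc25a, which activates CDK2, rose (1.49), as did Wee1 (1.59), a kinase gene that inhibits CDKs. Cdc25b, a phosphatase gene of mitotic entry, fell (−2.40), with stimulated signals close to the floor (3.98 in Tilcara, 3.99 in wild type). Of 7 measured genes for the turnover of p27 and cyclin E, 3 rose and 1 fell, with a median of 0.48. Cks1b, a cofactor in the destruction of p27, rose (1.09), Fbxw7, which marks cyclin E for destruction, rose (0.68), and Rnf123, for a p27 ubiquitin ligase, fell (−0.76); Skp2, which recognises p27, was not called (0.02). Among 10 measured upstream regulators 2 rose and 6 fell, with a median of −0.89; besides Myc and Foxo3 the largest change was that of Gsk3b (−1.62), a kinase gene whose product marks D cyclins for destruction.

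Of the genes of later phases, 3 of 11 for S phase and 3 of 9 for mitosis were called, beside 44.8% of all genes. Of 11 measured S phase genes 2 rose (Pole at 0.62 and Pcna at 0.57) and 1 fell (Rrm2 at −1.21, a ribonucleotide reductase subunit), 8 were not called, and the median was −0.13; Prim1, a primase gene, had 0.57 and was not called. Of 9 mitotic genes over the floor, of 14 listed, 1 rose (Kif11 at 0.84), 2 fell (the proliferation marker Mki67 at −0.87 and the kinase gene Aurkb at −0.58) and 6 were not called, with a median of 0.28. Kif11 was below the floor in both non-stimulated arrays and Mki67 in both stimulated ones. The median over all genes used was 0.04.

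**Figure D3:**
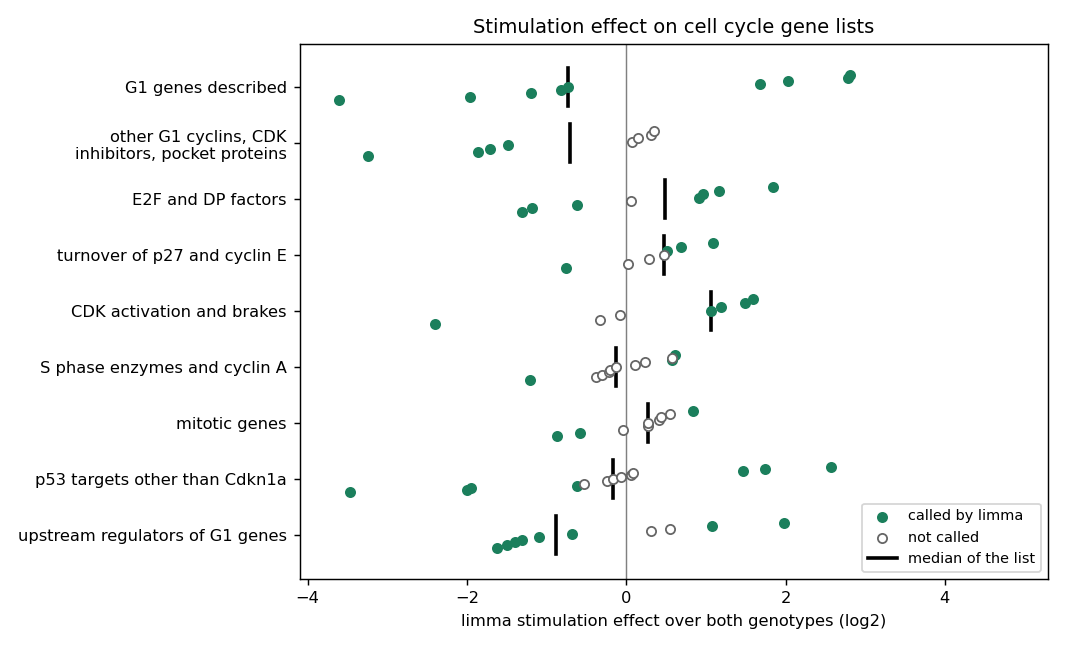
limma stimulation effect over both genotypes (log2, horizontal axis) of each gene over the signal floor, by list; filled points were called at an adjusted p of at most 0.05, open points were not, and bars are medians. The 9 G1 genes split into 4 at 1.67 or more and 5 at −0.73 or less, while most points of the S phase and mitotic lists are open and near 0.

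Between genotypes none of the 9 genes reached 2-fold in either state by its brightest probe set; over all genes 1.7% did so in stimulated and 1.08% in non-stimulated cells. limma called none of the 9 for genotype, nor any gene (0% of 12456), while 667 genes (5.35%), among them Ccnd2 and Cdkn1a, had an unadjusted p under 0.05. A p that misses the threshold does not show that levels were equal.

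Ccnd2 differed most, taking each gene's brightest probe set. Its signal was lower in Tilcara than in wild type by 0.97 log2 units in stimulated cells (9.40 against 10.38, 1.96-fold) and by 0.55 in non-stimulated cells (6.80 against 7.35, 1.47-fold). In stimulated cells it was at rank 99 from the bottom among 12456 genes. The genotype effect over both states did not pass (limma, log2 difference −0.76, SE 0.18, adjusted p = 0.866, lower in Tilcara in 2 of 2 states). After cyclic loess the difference in stimulated cells was −1.02, past 2-fold. Of 10 measured upstream regulators, 2 were at least 2-fold lower in stimulated Tilcara and none higher, against 1.7% of all genes in either direction. These were Stat5a and Stat5b, for transcription factors that act below interleukin-2 and are known to induce Ccnd2. A link to the Ccnd2 signal was not tested. Stat5a had signals of 5.01 in stimulated Tilcara and 7.39 in stimulated wild type, and Stat5b 4.78 and 6.03 in the same order, whereas without stimulation they differed by 0.11 and −0.11.

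Cdk6 was lower in Tilcara by 0.62 log2 units in stimulated cells (9.06 against 9.68) and by 0.19 in non-stimulated cells (6.49 against 6.68). Like Ccnd2 it was lower in both Tilcara arrays. The genotype effect did not pass (limma, log2 difference −0.41, SE 0.18, adjusted p = 0.866). The Tilcara response minus the wild-type response was −0.42 for each of Ccnd2 and Cdk6, a value with no test.

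Cdkn1a and Cdkn1b had higher signals in Tilcara in both states. Cdkn1a was higher by 0.48 in stimulated cells (6.93 against 6.44) and by 0.46 in non-stimulated cells (4.88 against 4.42), and Cdkn1b by 0.42 (5.20 against 4.78) and 0.26 (8.72 against 8.47). limma called neither for genotype (log2 difference 0.47, SE 0.15, and 0.34, SE 0.15, both with adjusted p = 0.866). Other CDK inhibitor genes were mixed. Cdkn2d differed by −0.94 in stimulated and 0.23 in non-stimulated cells, with a stimulated Tilcara signal of 4.10, close to the floor. In the same order, Cdkn2c differed by 0.30 and −0.31, Cdkn2b by 0.11 and 0.14, and Cdkn2a by −0.16 and 0.07. Cdkn1c differed by −0.03 and −0.04. Rb1 was higher by 0.38 in stimulated and 0.08 in non-stimulated cells, but with the mean over its probe sets the non-stimulated difference was −0.89. Its dimmer probe set was below the floor in non-stimulated Tilcara. Probe sets 17301886 and 17308600, which carry both Rb1 and Lpar6, read lower in stimulated Tilcara than in stimulated wild type (4.19 against 4.44, 4.51 against 4.81). Without stimulation they read 7.39 against 7.22 and 8.05 against 8.31. The share of each gene in these signals cannot be told apart. Of 13 p53 targets over the floor, Trp53inp1 (1.29) and Plk2 (1.05) were at least 2-fold higher in stimulated Tilcara and none was 2-fold lower. Over all genes 1.7% reached 2-fold in either direction. Sesn2 (−0.48), Pmaip1 (−0.38), Aen (−0.38), Btg2 (−0.13) and Mdm2 (−0.11) were lower and the others higher, with a median of 0.24.

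Ccnd3 was the gene whose responses differed most by the brightest probe set of each gene; with the mean over probe sets it was Rb1, at 1.24. Ccnd3 was higher in Tilcara by 0.56 in stimulated cells (6.18 against 5.62), and differed by −0.06 in non-stimulated cells. The stimulated difference was larger than its response in Tilcara, −0.43. The Tilcara response minus the wild-type response was 0.61, a 1.53-fold difference; 3.97% of all genes reached 2-fold by this measure and none of the 9 did by its brightest probe set. Cdk4 had a difference of responses of 0.48 and Cdk2 one of 0.26. With 1 array per group this difference of responses could not be tested.

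**Figure D4:**
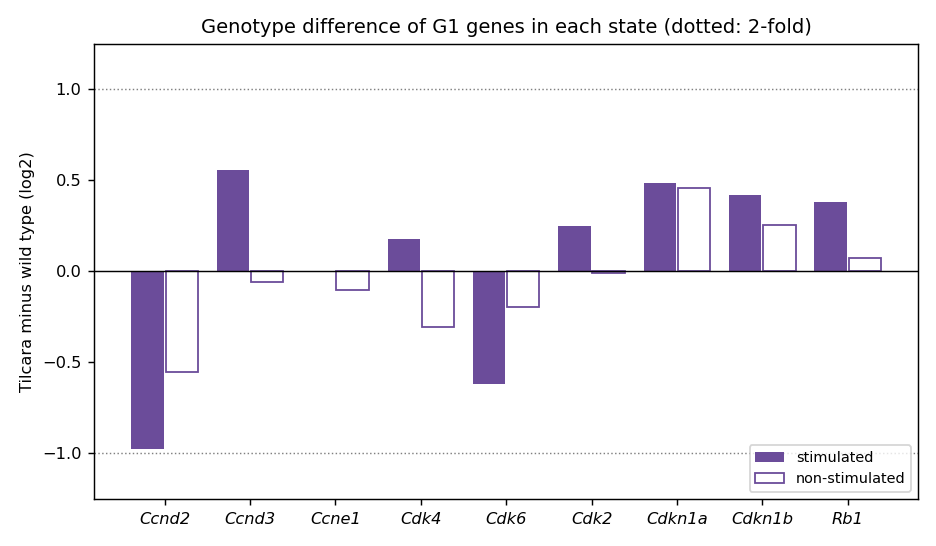
Tilcara minus wild-type signal (log2) of the 9 genes in stimulated (filled bars) and non-stimulated cells (open bars), each a difference between 2 single arrays with no error. Ccnd2 and Cdk6 lie below 0 in both states, Cdkn1a, Cdkn1b and Rb1 above 0 in both, and no bar reaches the dotted lines at 2-fold.

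Likeness of pattern was measured as the Euclidean distance between the 4 values of 2 genes, after subtracting each gene's mean. Cdk6 was among the 3 nearest genes of Ccnd2, at 0.36 log2 units, beside Zc3h12c (0.32), a gene of the Regnase family of RNA-cleaving proteins, and Zbtb32 (0.37), a zinc finger gene. Nearest to Cdk6 were Eea1 (0.11), of early endosomes, Lipg (0.17), a lipase gene, and again Zc3h12c (0.22). Nearest to Cdkn1b were Pglyrp1 (0.15), Sesn1 (0.17) and Fgd2 (0.17), and nearest to Cdkn1a were Fam162a (0.07), Atp1b3 (0.20) and Rsl24d1 (0.21). With 4 arrays many genes share a pattern, and the distances are a description.

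The arrays carried the label's B cell markers: each of the 7 analysed was above the floor in all 4 arrays. Their summed linear signal was 2118 in stimulated and 10655 in non-stimulated Tilcara, against 1577 and 10858 in stimulated and non-stimulated wild type. Sums over markers of other cells differed between arrays. The 10 neutrophil markers summed to 80.6 in stimulated and 100.3 in non-stimulated Tilcara, against 100.3 in stimulated and 800.4 in non-stimulated wild type, and 6 to 10 of the 10 were below the floor. S100a8 was lower by 5.19 log2 units in non-stimulated Tilcara than in non-stimulated wild type, where it exceeded the floor; its other 3 values were below it, as were all 4 of Camp. S100a9, Camp and Lyz2 of myeloid cells, Cd3g and Thy1 of T cells and the plasma cell gene Jchain were also at least 2-fold lower in Tilcara in 1 or both states, the plasmacytoid dendritic cell gene Klk1 was higher in non-stimulated Tilcara, and the antigen receptor gene Cd79b higher in stimulated Tilcara. These genes were named for their size, and the medians over markers above the floor were smaller. In non-stimulated cells the median difference was −0.63 for T cell, −0.33 for neutrophil and −0.29 for macrophage markers. It was −0.13 for plasma cell and 0.30 for plasmacytoid dendritic cell markers. For B cell markers in stimulated cells it was 0.05. The 9 measured T cell markers of 10 listed summed to between 110.2 and 219.9, the highest in non-stimulated wild type, and the 10 macrophage markers to between 192.5 and 285.8. The 9 NK cell markers summed to 127.8 in stimulated and 330.1 in non-stimulated Tilcara, against 137.1 in stimulated and 299.2 in non-stimulated wild type. The part of these cells in the values of the G1 genes was not tested.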

How the data were processed

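The authors deposited log2 signals of 41345 probe sets in 4 arrays, and the submitters' processing notes name RMA without a version. RMA subtracts background, equalises the arrays' quantiles and summarises the probes of a probe set. A change in total RNA per cell is therefore not visible. Array medians were between 3.73 and 3.79. No genome build is named for the arrays. The platform annotation gave a single symbol to 23521 probe sets, several to 1814 and none to 16010; all 9 measured member symbols matched RefSeq by gene ID. The probe set with the highest mean stood for a gene, levels of different probe sets were not compared, and a gene was used if any signal reached 3.83, the median over named probe sets. limma 3.58.1 in R 4.3.3 fitted stimulation and genotype to 12456 genes with Benjamini-Hochberg adjustment over all of them, at 0.05; "rose" and "fell" refer to it. Nothing says that arrays came from separate animals. Differences between single arrays were counted at a log2 difference of 1 (2-fold), with no test. Alternatives covered scaling, cyclic loess, probe sets, filters, thresholds, variance priors and covariates. The fit was run on simulated arrays in which few genes changed, equally in both genotypes. This checks the code, not the calls made on these arrays. Named genes were all members, the 3 genes of each list with the largest stimulation effect, and any with a genotype difference of at least 1. The 3 nearest patterns without predicted genes were named too. Ccnd1, Cdkn1c, Cdkn2a, Cdkn2b, Cdkn2c, E2f1, Skp2, Pcna, Mdm2, Pmaip1, Aen, Btg2 and Foxo1 were named after their values were seen. Members and lists were chosen with earlier results of these data known. Proteins were not compared. Depth does not apply to arrays; their number limits the precision.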

Additional observations from a re-analysis of the deposited data

Results flagged for a closer look

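For 3 of the G1 genes the difference between Tilcara and wild type had opposite signs in the 2 states, and these differences rest on single arrays and were not tested. For Ccnd3 it was 0.56 in stimulated and −0.06 in non-stimulated cells, which differ by 0.61 log2 units. For Cdk4 it was 0.18 and −0.30, which differ by 0.48, and for Cdk2 it was 0.25 and −0.01, which differ by 0.26. The median size of this difference of responses over all 12456 genes was 0.25. The non-stimulated differences of Ccnd3 and Cdk2 are below the median size of 0.18 over all genes in that comparison.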

How the results depend on the processing

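All 18 alternative counts of limma calls among the G1 genes stayed within 1.5 times the main count, at 8 or 9 for stimulation and 0 for genotype. Ccnd3 was the single call lost, without a filter on low signals. For genotype limma called no gene at all in any setting, so those counts carry no information on the G1 genes. With all 9 called for stimulation, a looser adjusted p threshold of 0.1 could not change that count. Of 35 alternative counts at a fold threshold, 30 stayed within 1.5 times, but part of them could not change. The filters on low signals dropped none of the G1 genes, and a count of 0 at 2-fold stays 0 at 3-fold. At 3-fold, 5 genes differed in wild type with stimulation. In stimulated cells 1 gene differed between genotypes after cyclic loess and 2 at 1.5-fold. The difference of responses passed for 1 gene with the mean over probe sets (Rb1, 1.24) and for 1 at 1.5-fold. Rb1 moved most: with its dimmer probe set, added after seeing the data, its response was −0.55 in Tilcara and −2.72 in wild type, approximate since 3 of its 4 values were below the floor. Median centring moved no difference by over 0.0554 and cyclic loess none by over 0.208. The cause of these shifts was not tested, apart from the choice of probe set. No paired analysis was possible because each group is 1 array; leaving out an array leaves no residual degree of freedom, and the response within each genotype is given above.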
